A study of Drosophila melanogaster with 6 samples.

Results

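The genes described here are the odorant receptor (Or), gustatory receptor (Gr) and ionotropic receptor (Ir) genes of Drosophila melanogaster, measured in whole male heads. Members were chosen by symbol, as every gene whose name is Or, Gr or Ir followed by a number, together with Orco. This gave 187 genes of the 17807 in the count table, namely 61 Or genes with Orco included, 60 Gr genes and 66 Ir genes.

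In flies an odorant receptor works as an ion channel formed with the shared co-receptor Orco, and each olfactory neuron of the antenna or maxillary palp usually uses 1 or a few tuning receptors beside it. Gustatory receptors serve mainly in taste neurons of the labellum, pharynx and legs, where they detect sugars and bitter compounds, and a few serve in the antenna. Ionotropic receptors descend from glutamate receptors, pair with the co-receptors Ir8a, Ir25a or Ir76b, and detect acids, amines, salts, humidity and temperature. In each case the receptor is made by few cells, so in RNA from a whole head such transcripts are a small part of the total.

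The study asked whether pumilio (pum), which encodes an RNA-binding repressor, affects sleep latency from peripheral tissues, and how the head responds to its knockdown there. The 3 pum kd libraries carried UAS-pumRNAi (TRiP.HMS01564), and the 3 control libraries carried UAS-mCherryRNAi in the VALIUM20 vector, both at attP2. Both genotypes carried esg-Gal4 and UAS-2xYFP with Su(H)GBE-Gal80 and tub-Gal80ts in a w1118/y1,sc*,v1;sev21 background. The paper used this driver to reach intestinal stem cells and the corpus allatum, and does not exclude expression in a small subset of brain neurons. Most head cells are thus not meant to express the hairpin. Flies of both genotypes were grown at 18°C and moved to 29°C to turn the hairpin on. Both had been through a sleep assay and had then rested for 30 minutes in pooled tubes at 29°C before freezing. The labels give no age, while the paper's methods give one for the flies of its sleep assays. Each library came from poly-A RNA of 10 pooled heads, which had been knocked off frozen bodies by shaking on sieves.

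The libraries held 33258537 to 39377789 gene counts in pum kd heads and 33445243 to 34300972 in control heads. The targeted gene pum measured 176, 192 and 228 CPM (counts per 1000000 gene counts, scaled by TMM factors) in pum kd heads and 346, 168 and 270 CPM in control heads. Control 2 lay below every pum kd library, so the groups overlapped (log2 fold change −0.40, SE 0.25, edgeR quasi-likelihood test with Benjamini-Hochberg adjusted p = 0.993), and pum in whole heads is no check of the labels. Values that the authors had corrected for batch divide the libraries into a batch of pum kd 1, control 1 and control 2 and a batch of the rest. The labels name no batch. Summed markers of neurons, glia, photoreceptors and head fat body were present in every library. The fat body markers Fbp1, Yp1 and Yp2 were each at 0 in at least 1. No gene of these lists was called, beside 0.103% of all genes tested. All 4 glia markers were fitted higher in pum kd, and all 4 neuron markers lower. The glia marker alrm measured 71.2, 62.9 and 57.3 CPM in pum kd heads and 32.4, 32.4 and 34.0 CPM in control heads (log2 fold change 0.95, edgeR adjusted p = 0.0699). Cell composition of the heads was not tested. Midgut markers were at 0 in every library except lab, and accessory gland markers summed to at most 1.14 CPM in any library. The testis markers reached 5.52 CPM in pum kd 2, against at most 0.222 CPM in any other library.

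Receptor genes were sparse in these heads. A receptor gene was taken as detected where it had at least 3 counts in at least 3 of the 6 libraries, which 55 of the 187 genes met (17 Or, 14 Gr and 24 Ir). Only 18 genes had a count in every library, 67 had none in any library, and 45 had counts in a single library. For a gene with no count whose exons no other gene shares, 3 counts are the upper limit that a 0 allows under counting error alone. This floor equals 0.0800 to 0.0906 CPM depending on the library. Exons of 13 receptor genes overlap those of another gene on the same strand, where a read may be left out as ambiguous. Among genes with no count this covers all 2858 bp of exon in Gr64b and Gr64c, 2882 bp shared by Gr64d and Gr64e, all 2819 bp in Or10a and Gr10a, and 2098 bp of Ir75d (shared with COX6AL2), so their 0s give no limit on expression. Such limits cover counting error only, since the reads carry no molecular identifiers. In bulk RNA, fewer receptor neurons and less RNA per neuron cannot be told apart.

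The Ir family held 69.8% of the 26413 receptor counts, the Or family 21.1% and the Gr family 9.18%. Ir76a and Ir62a alone held 42.4%, and 8 genes (these 2 with Ir76b, Or43b, Or63a, Ir25a, Ir68a and Ir85a) held 69.5%. Most receptor counts in these libraries thus came from a few genes, 6 of those 8 of the Ir family.

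**Figure D1:**
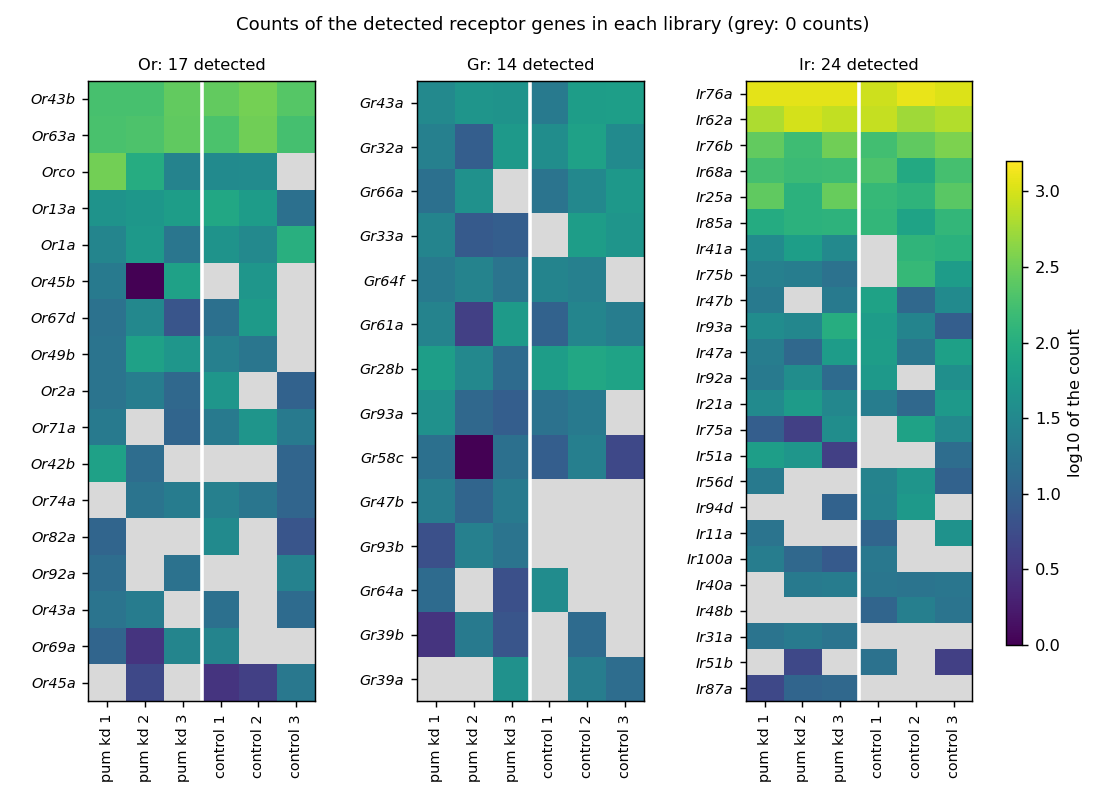
Counts of the detected receptor genes in each library, by family, as colour on a log10 scale (grey, 0 counts), with pum kd libraries left of control libraries and genes ordered by CPM per kb of exon. The brightest rows, with the most counts, are Ir76a and Ir62a, whereas many other detected genes fall to 0 in at least 1 library.

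Summed over the family, Ir genes measured 90.9, 83.1 and 92.2 CPM in pum kd heads and 84.4, 84.4 and 94.5 CPM in control heads. Or genes summed to 37.1, 23.6 and 24.9 CPM in pum kd heads and 27.0, 28.0 and 19.6 CPM in control heads. Gr genes summed to 12.2, 7.47 and 10.4 CPM in pum kd heads and 10.7, 17.0 and 12.2 CPM in control heads. In every family the ranges of both genotypes overlapped. The log2 ratio of the mean sums, pum kd over control, was 0.20 for Or, −0.41 for Gr and 0.02 for Ir. With each library left out in turn it ran from −0.038 (without pum kd 1) to 0.32 for Or, from −0.57 to −0.19 for Gr and from −0.012 to 0.073 for Ir. Within the batch of pum kd 1 and controls 1 and 2, Or genes averaged 37.1 CPM in pum kd and 27.5 CPM in control, and within the other batch 24.2 CPM in pum kd and 19.6 CPM in control. Gr genes averaged 12.2 CPM in pum kd and 13.9 CPM in control in the first batch, and 8.93 CPM in pum kd and 12.2 CPM in control in the other. Ir genes averaged 90.9 CPM in pum kd and 84.4 CPM in control in the first batch, and 87.7 CPM in pum kd and 94.5 CPM in control in the other, so the order turned between batches.

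**Figure D2:**
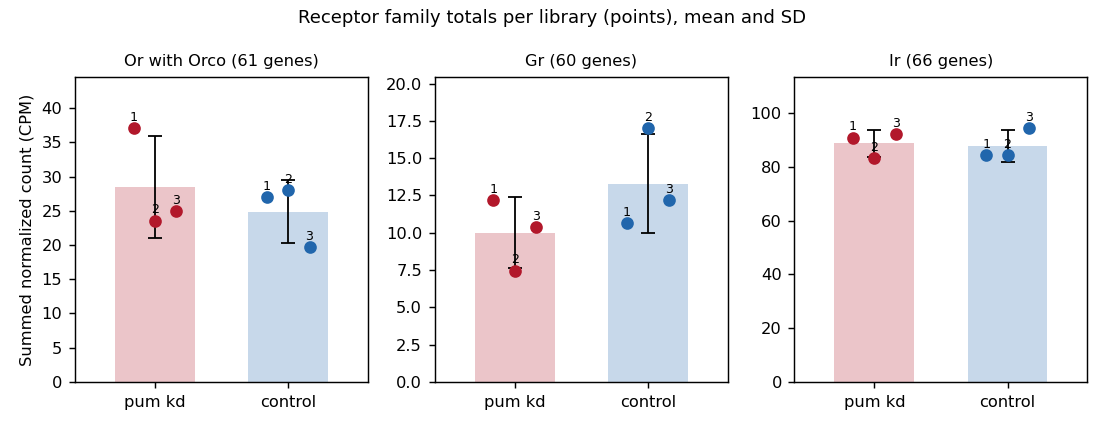
Summed CPM of the Or, Gr and Ir genes in each library, with a numbered point per library, a bar for the group mean and a whisker for 1 SD, pum kd left of control. The groups overlap in all 3 families, and pum kd 1 has the highest Or sum at 37.1 CPM.

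Of the 187 genes, 46 passed the filter on low counts and were tested (15 Or, 10 Gr and 21 Ir). None was called in pum kd against control by edgeR's quasi-likelihood test (Benjamini-Hochberg adjusted p under 0.05, with a log2 fold change of 1 or more in either direction), against 11 of 10696 genes in all, or 0.103%. At an unadjusted p under 0.05 there were 3 receptor genes, Orco, Ir31a and Ir48b, beside 4.95% of all genes. Ir31a and Ir48b passed the filter only through the genotype in which they had counts, so their p-values are no support for a difference. DESeq2, run on the 120 receptor genes with a count, also called none, against 0.461% of the 11935 genes given an adjusted p. Some of the 120, Or85b and Ir7a among them, were given no adjusted p and could not be called. DESeq2 had 10 of the 120 at an unadjusted p under 0.05, beside 5.3% of all genes. The edgeR test of every gene with a count likewise called none of the 120, against 0.552% of all genes, and had 6 of the 120 at an unadjusted p under 0.05, beside 5.21%.

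Fitted values of the tested receptor genes lay above 0 for 19 and below 0 for 27, while 45.6% of all genes tested lay above 0. The receptor genes had a median log2 fold change of −0.16, against −0.03 over all genes. By family the median was −0.09 for Or, −0.29 for Gr and −0.15 for Ir. Setting genes at 0 in 1 genotype at their floor left these medians unchanged. That outcome was fixed in advance, since it moved only Ir31a and Ir48b, which stayed at opposite extremes. The groups did not overlap in 2 of the 46 genes, Ir31a and Ir48b, while this held for 10.3% of all genes tested (5.36% higher and 4.95% lower in pum kd). Ir31a was higher and Ir48b lower in pum kd. Each passed the filter only through the genotype in which it had counts, so its separation is no support for a difference. The share of receptor genes that separated by genotype was not above that of genes in general, but the 2 shares come from unlike count levels. With a filter at a mean of at least 1 CPM, 18 receptor genes were tested, against 9515 genes in all. No share was computed at matched levels, so nothing is concluded about receptor genes from this.

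**Figure D3:**
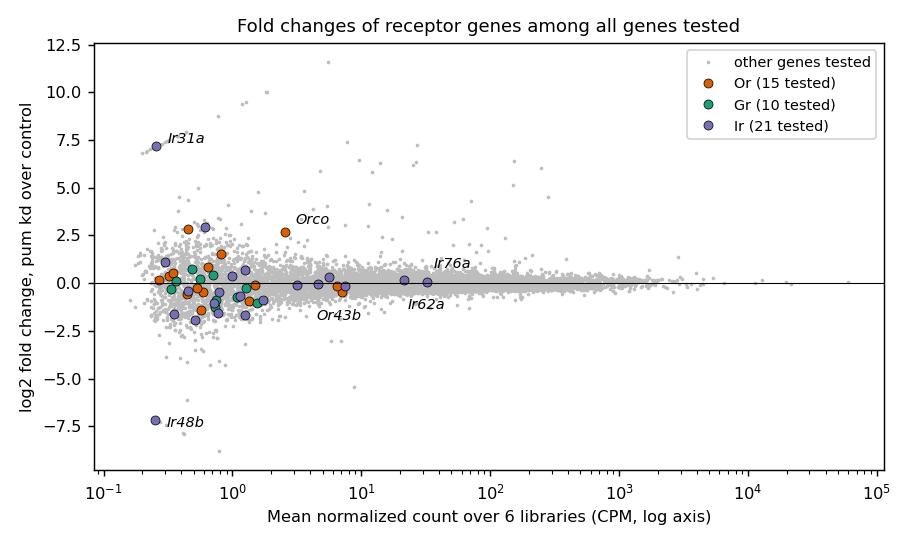
Log2 fold change (pum kd over control, edgeR) of the tested receptor genes against their mean CPM on a log axis, coloured by family, with all other tested genes in grey. The receptor genes with the most counts lie near 0, Orco lies at 2.7, and the extremes of Ir31a and Ir48b come from 0 counts in 1 genotype.

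Orco, the co-receptor that Or tuning receptors need to reach the dendrite, varied widely between libraries. Orco (FBgn0037324, chromosome 3R, 5407183 to 5412406, minus strand, dm6) measured 9.96, 2.56 and 0.750 CPM in pum kd heads. In control heads it measured 1.03, 0.998 and 0 CPM. Pum kd 1 and pum kd 2 lay above every control library, while pum kd 3 lay below control 1 and control 2, so the groups overlapped. The means were 4.42 ± 4.88 CPM in pum kd and 0.675 ± 0.585 CPM in control (SD, n = 3 libraries each). The log2 fold change of 2.7 (SE 1.21) had an edgeR adjusted p = 0.978, with 0.0478 before adjustment, and it was 1.35 without pum kd 1. With any other library left out it ran from 2.12 (without control 3) to 3.21 (without pum kd 3). It was 2.76 without a filter, 2.99 with replicate number as a block and 4.09 after correction of the counts for batch. Orco was called in none of these. Within batches Orco had 9.96 CPM in pum kd and 1.01 CPM in control, then 1.66 CPM in pum kd and 0 CPM in control.

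Of the 39 Or genes known from the antenna, 10 were detected, and 10 had no count in any library. Library by library, 23, 14 and 9 of the 39 had at least 3 counts in pum kd heads, against 9, 4 and 9 in control heads. Pum kd 3 therefore had as many as the highest control library. At least 3 counts in any library of the genotype were reached by 27 antennal Or genes in pum kd and 13 in control, and by 17 in pum kd when pum kd 1 was left out. Leaving out a library can only lower this number, and no control library was left out beside it. The antennal Or sum was 19.4, 13.4 and 13.4 CPM in pum kd heads and 16, 13.5 and 9.73 CPM in control heads, and the groups overlapped. Of the 9 antennal Or genes tested, 5 were fitted higher and 4 lower, with a median log2 fold change of 0.17.

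Or43b, a receptor of the antenna, carried 49.7% of the antennal Or counts. Or43b measured 5.52, 4.91 and 7.56 CPM in pum kd heads and 8.09, 9.73 and 6.59 CPM in control heads, with pum kd 3 inside the control range (log2 fold change −0.44, SE 0.29, edgeR adjusted p = 0.993). At 5.0 CPM per kb of exon it was the highest Or gene, above Orco at 1.31 CPM per kb. Its exons overlap those of Cul1 on the opposite strand over 575 bp, and Cul1 measured 171 to 238 CPM. Whether the counting used strand is not given in the sources used here, so the part of Cul1 reads in the Or43b count was not tested. Without Or43b, the antennal Or sum was 13.8, 8.51 and 5.86 CPM in pum kd heads and 7.88, 3.77 and 3.15 CPM in control heads. This sum without Or43b was computed after the values were seen, and pum kd 3 still lay below control 1.

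Several antennal Or genes had nearly all their counts in pum kd 1 and pum kd 2. Or42b, a receptor for fruit esters, had 67, 14 and 0 counts in pum kd heads and 0, 0 and 11 counts in control heads. Or22b had 48, 11 and 0 counts in pum kd heads and none in control heads. This is 18.8-fold higher when the control group is set at 3 counts in all, the floor used for such genes. Its neighbour Or22a, which responds to ethyl esters, had no count in any library. Or47b, the receptor for a fly-derived fatty acid odour that promotes courtship in males, had 36 counts in pum kd 1 and none in any other library. Or42b, Or22b, Or22a and Or47b are named here after their values were seen. Or19a and Or19b, near-identical copies whose reads the counting may have split or dropped, had 9, 13 and 0 and 8, 0 and 0 counts in pum kd heads and none in control heads.

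Other antennal Or genes did not follow these libraries. Or49b had 17, 68 and 48 counts in pum kd heads and 25, 18 and 0 counts in control heads (log2 fold change 1.52). Or13a had 44, 49 and 61 counts in pum kd heads and 83, 58 and 15 counts in control heads (log2 fold change −0.09). Or67d, the receptor for the male pheromone cis-vaccenyl acetate, had 16, 31 and 7 counts in pum kd heads and 15, 56 and 0 counts in control heads. The genotypes overlapped for all 3 genes, and none was called.

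**Figure D4:**
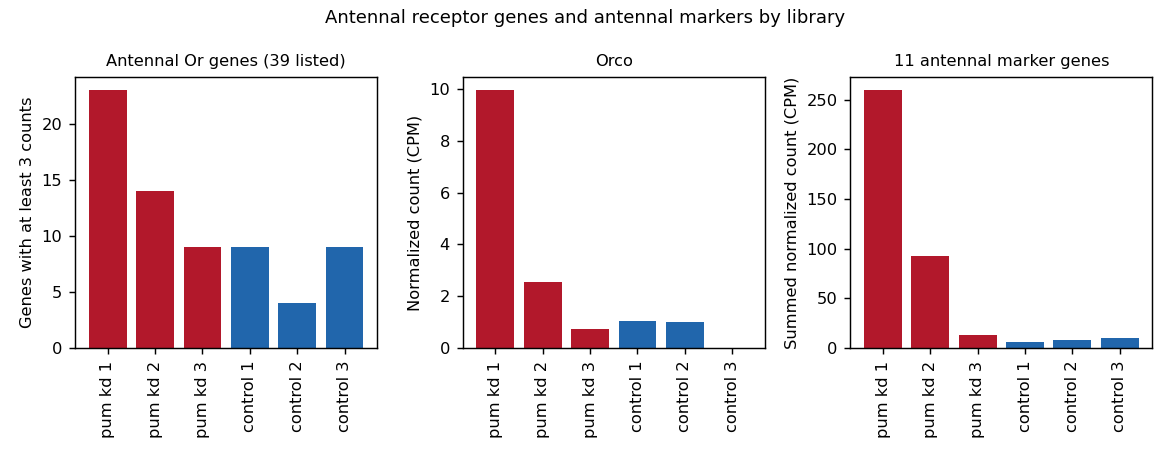
Number of antennal Or genes with at least 3 counts, CPM of Orco and summed CPM of antenna markers in each library (bars from 0), with pum kd libraries left of control libraries. The antenna markers other than Obp19d and Snmp1 sum to 260 and 92.3 CPM in pum kd 1 and 2 and to 12.6 CPM or less in the other 4 libraries, and Orco is highest in the same 2 libraries. Both genes left out are in the marker list. With Snmp1 kept, the sum is 280, 105 and 23.9 CPM in pum kd and 17.0, 20.7 and 23.0 CPM in control.

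Most markers of the antenna, the organ that bears most Or neurons, were also highest in pum kd 1 and pum kd 2. Of 15 listed genes 13 were matched and 11 tested, and all 11 were fitted higher in pum kd, with a median log2 fold change of 4.03. None was called by edgeR, and 5 had an unadjusted p under 0.05. The odorant-binding protein gene Obp83a had 2125, 703 and 18 counts in pum kd heads and 0, 0 and 36 counts in control heads. The gene a10 had 1467, 635 and 150 counts in pum kd heads and 0, 74 and 53 counts in control heads. Thus both genes were highest in pum kd 1 and 2, and in pum kd 3 Obp83a lay inside the control range while a10 stayed above every control library. Of the 11 tested, a10, Obp28a and Jhedup did not overlap between genotypes and were higher in pum kd, beside 5.36% of all genes. Over the whole list, 13, 13 and 9 of the 13 markers had at least 3 counts in pum kd heads, against 6, 8 and 11 in control heads. Their sum was 1392, 705 and 689 CPM in pum kd heads and 456, 962 and 674 CPM in control heads, most of it from Obp19d, which taste organs also express. The listed markers Obp59a and a5 had 0 counts in pum kd 3 and in all 3 control libraries, while lush, Snmp1, Obp19d, Obp28a, Cyp308a1 and Amt had counts in every library. The part of antennal tissue recovered with each pool of heads in the Orco and Or values was not tested.

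Among the 21 matched chemosensory partner genes (odorant-binding proteins, Snmp, ppk and transcription factor genes), 18 were tested, 11 were fitted higher and 7 lower, and none was called. The median log2 fold change was 0.19, and 4 genes had an unadjusted p under 0.05, beside 4.95% of all genes. This list shares lush, Obp83a, Obp83b, Snmp1, Jhedup and Amt with the antenna markers, and Obp83a, Obp83b and Jhedup are among the 4, with Rh50, which encodes an ammonium transporter-like protein.

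The maxillary palp, the other olfactory organ of the head, left little trace in these data. Of its 7 Or genes 1 was detected, Or71a, a receptor for phenolic odours of yeast. Or71a lies within the span of Plp, which measured 91.2 to 178 CPM. The part of Plp reads in the Or71a count was not tested. Or71a had 21, 0 and 11 counts in pum kd heads and 20, 46 and 20 counts in control heads, with pum kd 1 inside the control range (log2 fold change −1.41). Or46a had 9 counts in pum kd 2 alone. The other 5 (Or33c, Or42a, Or59c, Or85d and Or85e) had no count in any library.

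Or genes known from larvae were also counted in these adult heads. Or63a (chromosome 3L, 2961534 to 2963788) held 69.3% of the counts of these 13 genes. It measured 5.67, 5.34 and 7.20 CPM in pum kd heads and 5.89, 9.24 and 5.35 CPM in control heads, and the groups overlapped (log2 fold change −0.17, SE 0.31). Or1a had 29, 52 and 18 counts in pum kd heads and 44, 32 and 105 counts in control heads, with the span of CG3777 around it. Or45b had 21, 1 and 67 counts in pum kd heads and 0, 48 and 0 counts in control heads, and a long antisense RNA, asRNA:CR45281, overlaps its exons over 1191 bp. Or74a had 0, 17 and 22 counts in pum kd heads and 25, 18 and 11 counts in control heads. The genotypes overlapped in all 4 genes. Without Or63a the 13-gene sum was 1.5, 2.00 and 3.25 CPM in pum kd heads and 3.47, 3.00 and 3.97 CPM in control heads, which overlap by pum kd 3 and control 2.

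Gustatory receptor RNA was low. The highest Gr gene per kb of exon was Gr43a, a fructose receptor of the brain and of taste neurons, at 0.830 CPM per kb. Gr43a measured 0.960, 1.25 and 1.22 CPM in pum kd heads and 0.634, 1.71 and 1.82 CPM in control heads (log2 fold change −0.28), and its exons overlap those of Dhx15 over 155 bp. The sugar receptor gene Gr64f had 21, 27 and 17 counts in pum kd heads and 28, 25 and 0 counts in control heads. Gr61a, which detects glucose, had 27, 4 and 55 counts in pum kd heads and 10, 29 and 23 counts in control heads. These 3 genes overlapped between genotypes. Gr64a had 13, 0 and 6 counts in pum kd heads and 36, 0 and 0 counts in control heads, and the 0s of Gr64b, Gr64c, Gr64d and Gr64e do not measure their expression, since Gr64b and Gr64c, and Gr64d and Gr64e, share nearly all exon bases. Of the 9 sugar receptor genes 4 were detected, and their sum was 2.82, 2.08 and 4.03 CPM in pum kd heads and 2.87, 3.25 and 3.15 CPM in control heads.

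The bitter receptors that most bitter neurons share were present, and 4 of 5 were detected. Gr32a, which also serves male avoidance of courting other males, had 25, 9 and 53 counts in pum kd heads and 37, 67 and 34 counts in control heads (log2 fold change −0.71). Gr66a, which responds to caffeine, had 15, 41 and 0 counts in pum kd heads and 17, 31 and 51 counts in control heads (log2 fold change −0.90). Gr33a, a co-receptor for many bitter compounds, had 28, 8 and 9 counts in pum kd heads and 0, 61 and 47 counts in control heads (log2 fold change −1.26). None of these 3 was called, and in each the genotypes overlapped. Gr39a had 41 counts in pum kd 3 and none in the other pum kd libraries, against 0, 23 and 14 counts in control heads, and Gr89a had no count in any library. Summed, the 5 genes measured 2.04, 1.55 and 2.86 CPM in pum kd heads and 1.63, 5.19 and 4.29 CPM in control heads, so the highest pum kd library lay above control 1. The taste organ markers overlapped as well, at 365, 234 and 300 CPM in pum kd heads and 249, 384 and 349 CPM in control heads, with 7 of 9 tested and none called.

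Gr28b, whose isoforms act in heat and light sensing as well as taste, had the highest Gr counts and is named after its values were seen. It measured 1.86, 0.827 and 0.361 CPM in pum kd heads and 1.84, 2.37 and 2.09 CPM in control heads. Pum kd 1 lay just above control 1, so the groups overlapped (log2 fold change −1.05, SE 0.83, edgeR adjusted p = 0.993). The carbon dioxide receptor is formed by Gr21a and Gr63a in the same antennal neurons, yet the 2 genes did not appear in the same libraries. Gr21a had 17, 8 and 0 counts in pum kd heads and none in control heads, a level 7.97-fold the control floor. Gr63a had no count in pum kd heads and 48, 0 and 0 counts in control heads. Neither gene was detected or tested.

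The Ir co-receptors differed among themselves. Ir25a, used by most Ir complexes and by temperature and humidity neurons, measured 7.77, 3.01 and 7.92 CPM in pum kd heads and 4.23, 3.39 and 7.12 CPM in control heads (log2 fold change 0.34, SE 0.43). Ir76b, used by amine and taste neurons, measured 8.13, 4.27 and 8.86 CPM in pum kd heads and 5.07, 7.53 and 11 CPM in control heads (log2 fold change −0.15, SE 0.37). For both genes the groups overlapped and pum kd 2 was the lowest pum kd library. Ir8a, used by acid-sensing neurons of the antenna only, had 34, 9 and 0 counts in pum kd heads and none in control heads. Its pum kd level was 13.7-fold the control floor, and Ir8a did not pass the filter. Its counts were in pum kd 1 and pum kd 2, the libraries with the highest sum of antenna markers once Obp19d is left out. Per kb of exon, Ir76b averaged 3.24 CPM and Ir25a 1.55 CPM over the 6 libraries.

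The most abundant receptor gene was Ir76a, a tuning receptor for phenylethylamine in the antenna (chromosome 3L, 19799278 to 19803427, plus strand), at 15.3 CPM per kb of exon. It measured 34.7, 31.1 and 32.9 CPM in pum kd heads and 27.4, 35.7 and 31.3 CPM in control heads. Its means were 32.9 ± 1.80 CPM in pum kd and 31.5 ± 4.15 CPM in control (SD, n = 3 libraries each), and it differed by a log2 fold change of 0.06 (SE 0.17, edgeR adjusted p = 0.995). The pum kd libraries all lay inside the control range. The exons of CG14102 overlap it on the opposite strand over 297 bp, and CG14102 measured 8.31 to 10.8 CPM.

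Ir62a (chromosome 3L, 1529439 to 1531259, minus strand) came next at 11.7 CPM per kb of exon. It measured 19.1, 26.0 and 22.4 CPM in pum kd heads and 24.9, 16 and 19.7 CPM in control heads (log2 fold change 0.16, SE 0.22, edgeR adjusted p = 0.993). The groups overlapped. Ir62a lies within the span of Iml1, which measured 129 to 183 CPM, and the part of Iml1 reads in the Ir62a count was not tested. Ir76a and Ir62a had at least 560 counts in every library, whereas Orco was at 0 in control 3.

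Ir68a, needed for sensing moist air, averaged 1.88 CPM per kb of exon and had 176, 151 and 154 counts in pum kd heads, against 201, 87 and 183 counts in control heads. Ir93a, which acts with Ir25a in cool and humidity sensing, had 36, 30 and 98 counts in pum kd heads and 59, 28 and 9 counts in control heads. Ir21a, the cool receptor, had 34, 57 and 30 counts in pum kd heads and 23, 12 and 52 counts in control heads, and an antisense RNA, asRNA:CR43609, overlaps it over 2087 bp. All 5 temperature and humidity genes were detected and tested, with Ir40a, needed for sensing dry air, at 0, 21 and 22 counts in pum kd heads and 18, 17 and 18 counts in control heads. Of the 5, 3 were fitted higher and 2 lower (median log2 fold change 0.34), and none was called. Their sum was 15.2, 9.92 and 16.4 CPM in pum kd heads and 13.3, 7.50 and 14.8 CPM in control heads.

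Among the 17 antennal Ir genes 12 were detected, with a sum of 62.6, 50.3 and 61.3 CPM in pum kd heads and 47.4, 61.1 and 64.2 CPM in control heads. Of the 12 tested, 5 were fitted higher and 7 lower, with a median log2 fold change of −0.09. Ir41a, an amine receptor, had 35, 63 and 32 counts in pum kd heads and 0, 124 and 111 counts in control heads (log2 fold change −0.91). Ir75b, tuned to butyric and propionic acid, had 25, 23 and 16 counts in pum kd heads and 0, 141 and 58 counts in control heads (log2 fold change −1.66, SE 1.40). In both, control 1 was at 0 while controls 2 and 3 lay above every pum kd library. The counts of these acid and amine receptors thus did not rank the libraries as Orco did. Ir47a and Ir47b share 413 bp of exon on the same strand, so their counts cannot be separated with certainty.

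Ir31a and Ir48b separated the genotypes without a call. Each passed the filter only through the genotype in which it had counts. Its separation and its unadjusted p are therefore no support for a difference. Ir31a, which responds to 2-oxovaleric acid, had 17, 21 and 17 counts in pum kd heads and none in control heads. Its pum kd level was thus 17.5-fold the control floor (edgeR unadjusted p = 0.0148, adjusted p = 0.714). Ir48b, an orphan receptor, had no count in pum kd heads and 11, 24 and 17 counts in control heads. Its control level was 18.1-fold the pum kd floor (edgeR unadjusted p = 0.0156, adjusted p = 0.728).

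Among genes that the filter left out, Gr47b, Gr93b and Ir87a, named after their values were seen, had the same form as Ir31a. Gr47b had 23, 11 and 21 counts in pum kd heads and none in control heads, a level 17.5-fold the control floor. Gr93b had 6, 25 and 17 counts in pum kd heads and none in control heads, a level 15.3-fold the control floor. Ir87a had 5, 11 and 12 counts in pum kd heads and none in control heads, a level 8.93-fold the control floor. In total 41 receptor genes had counts in pum kd libraries only (18 Or, 9 Gr and 14 Ir) and 18 in control libraries only (3 Or, 9 Gr and 6 Ir). Over all genes with a count, 9.09% had counts in pum kd only and 4.3% in control only, most of them genes with few counts. At a mean under 5 counts, 63.8% of receptor genes with a count had counts in pum kd only and 29.8% in control only, beside 57.7% and 28.1% of all genes of that level. At a mean of 5 to 10 counts, 39.3% had counts in pum kd only and 14.3% in control only, beside 19.7% and 9.55% of all genes. None of the 16 receptor genes at a mean of 10 to 20 counts had counts in 1 genotype only, beside 5.18% of all genes in pum kd only and 0.913% in control only. Without pum kd 1 the number in pum kd libraries only was 26, and with pum kd 3 as the single pum kd library it was 13, as in alternatives added after the values were seen. All 3 control libraries were kept in these, so the number could only fall whichever pum kd library was left out.

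The steadiness of a receptor gene followed its level. Of all 1122 library values of receptor genes, 776 were at 0 and 346 were above 0, with a median of 22 counts among those above. Values of 1 to 3 counts were rare, at 10 of the 346, and 60 receptor genes had 0 counts in 1 library and at least 20 in another. Among receptor genes with a mean of 10 to 20 counts 31.3% of library values were at 0, beside 32.8% among all genes of that level. At a mean of 40 to 100 counts 6.25% of the values were at 0, beside 2.07% of all genes. At a mean of 1 to 5 counts 80.2% of the values were at 0, beside 77.9% of all genes. At a mean of 5 to 10 counts it was 61.3%, beside 55.9%. Receptor genes at these levels thus had 0s at a rate near or above that of all genes of their level.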

How the data were processed

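RNA of 6 libraries was measured, 3 pum kd and 3 control. Per the labels, the authors used FastQC 0.12.1, Trimmomatic 0.39 and STAR 2.7.11b with genome build dm6. All tests used the raw gene counts that the authors deposited, which carry no normalization. A second deposited table holds a normalized signal (ComBat-seq counts divided by size factors), used here only to work out the batches, with log2 fold changes and p-values from the authors' DESeq2 comparison that were not used. The annotation and strand setting of the counting are not given in the sources used here. Rows that name no gene held 11.5% to 14.2% of a library's counts and were left out.

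Identifiers of 17710 of the 17807 genes, all 187 receptor genes included, are in the Ensembl annotation used for symbols and positions. CPM are counts per 1000000 gene counts after scaling by TMM factors. Genes were tested across the whole table with edgeR 4.0.16 in R 4.3.3 (quasi-likelihood test after filterByExpr and TMM, p-values adjusted by Benjamini-Hochberg), and SE is the log2 fold change divided by the square root of F. Alternatives used DESeq2 1.42.0 and sva 3.50.0 (ComBat-seq). The code was tested on simulated data. Replicates were separate pools of heads. The members and lists were chosen with earlier results of these data known. Genes named were the co-receptor and carbon dioxide receptor genes, the 5 highest per kb of exon in each family, genes called or not overlapping between genotypes, the 2 per family with the most counts beside a 0, up to 4 per list and near-identical copies. Others are said to have been named after their values were seen.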

Additional observations from a re-analysis of the deposited data

How the results depend on the processing

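No receptor gene was called in any setting run. The number of all genes called was 11 in the reported fit, 73 without a filter, 55 with DESeq2 and 29 after ComBat-seq by batch. It was 1 to 30 with a library left out (1 without control 3, 30 without control 2). The authors' pipeline, DESeq2 after ComBat-seq, was not among these settings. After ComBat-seq, edgeR had 7 of 42 receptor genes at an unadjusted p under 0.05, beside 1317 of 10358 genes in all. Ir31a came nearest to a call there, at an edgeR adjusted p of 0.0693. The replicate numbers did not pair the libraries (correlations of same-numbered deviations −0.087, −0.021 and 0.014). With replicate number as a block 14 genes were called in all and no receptor gene, and 23 of the 46 tested were fitted higher. Receptor genes fitted higher numbered 19 of 46 in the reported fit, 65 of 120 without a filter, 64 of 120 with DESeq2, 5 of 18 at a mean of at least 1 CPM, and 20 to 29 with a library left out, where the number tested also changed. The sign turned for Ir76b (reported −0.15) at 0.14 without pum kd 2 and 0.17 without control 3, with a range of −0.39 to 0.17. It turned for Ir76a at −0.027 without control 1, with a range of −0.027 to 0.19, and for Or63a at 0.14 without control 2, with a range of −0.32 to 0.14, and at 0.012 after ComBat-seq. The cause of these turns was not tested. Asking for 3 counts in every library left 4 Or, 4 Gr and 9 Ir genes detected. The antennal Or log2 ratio was 0.24, and 0.93 without Or43b. Antennal Or genes with at least 3 counts in a pum kd library numbered 27, and 17 without pum kd 1, a number that could only fall. Receptor genes with counts in pum kd only numbered 41, and 13 to 26 with pum kd libraries left out, while those in control only numbered 18, and 24 to 33. Every control library was kept, so the pum kd number could only fall and the control number only rise. The Or log2 ratio of summed CPM was −0.038 without pum kd 1, against 0.20 with every library.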
